A study of Mus musculus with 6 samples.

Results

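The Notch pathway genes described here were 10 rows of a raw count table, chosen by gene name: the receptors *Notch1*, *Notch2* and *Notch3*, the ligands *Jag1*, *Jag2* and *Dll1*, the DNA-bound partner *Rbpj* with its coactivator *Maml1*, and the effectors *Hes1* and *Hey1*. All 10 were among the 55367 gene names of the table and among the 14916 genes with enough counts to be tested. RNA had been sequenced from primary mouse keratinocytes, the epidermal cells of the skin, taken from day 2 pups of a mixed C57BL/6 and 129/Sv background and grown in low-calcium medium. All cultures carried *Ppp1r13l* flox/flox;Cre+ERT, in which loxP sites flank part of the gene for iASPP, an ankyrin-repeat protein that binds p53 family members, and a tamoxifen-inducible Cre recombinase sits in a locus that is active in most cell types. In each of 3 batches, tamoxifen was given to 1 culture (iASPP KO) and withheld from the other (iASPP WT), which gave 6 libraries and 3 same-batch pairs. Medium with or without the drug was added 24 h after plating, and cells were kept for 4 days. Tamoxifen is given as 1 μM in the study's methods and as 1 mM in the sample labels. Since iASPP WT cultures received no tamoxifen, an effect of the drug and an effect of the deletion cannot be told apart.

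Notch receptors are single-pass membrane proteins that are switched on by Jagged and Delta-like ligands on a neighbouring cell. Ligand binding lets an ADAM protease and then gamma-secretase cut the receptor, and the freed intracellular domain joins RBPJ and a Mastermind-like coactivator on DNA to turn on genes such as those of the Hes and Hey repressors. In epidermis the pathway is known for its role in the step from proliferating basal cells to differentiating suprabasal cells.

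Library totals ran from 20202517 to 25157117 counts, and 3 counts corresponded to 0.123 to 0.141 CPM (counts per 1e+06 counts of the library, scaled by TMM). *Ppp1r13l* stood at 320, 395 and 139 counts in iASPP KO libraries of batches 1, 2 and 3. In the iASPP WT libraries it stood at 697, 1100 and 472. Its RNA was thus lower in the tamoxifen culture of each batch and not absent. These counts cover all exons of the gene, while loxP sites flank only part of it. The study reports that iASPP was absent after tamoxifen by immunofluorescence staining. The 6 basal keratinocyte markers (*Krt5*, *Krt14*, *Trp63*, *Itga6*, *Itgb4*, *Col17a1*) summed to 22866 to 27413 CPM, and none of them passed the test. Batch 3 stood apart in both conditions. There the summed level of 6 fibroblast markers was 454 CPM in iASPP KO and 669 CPM in iASPP WT, against 33.7 to 51.5 CPM in the other 4 libraries, and the 6 suprabasal markers summed to 951 and 851 CPM, against 2289 to 2876 CPM. Results that rest on batch 3 are given with and without it. In RNA from bulk cultures, fewer cells of a type and less RNA per cell cannot be told apart.

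Among the Notch pathway genes, the ligand *Jag2* was the one that passed the test with all batches. It fell by 1.00 ± 0.18 (SE, n = 3 pairs) on the log2 scale in iASPP KO, to 0.501 of its iASPP WT level (95% confidence interval 0.380 to 0.662), with an adjusted p of 0.0157 (edgeR, Benjamini-Hochberg). No gene of the 10 passed with a higher level in iASPP KO, and the other 9 did not pass in either direction. DESeq2 likewise called 0 of the 10 higher and 1 lower, beside 483 higher and 410 lower of the 12121 genes with an adjusted p. In edgeR, 1.95% of all tested genes were called lower and 2.17% higher. At an unadjusted p under 0.05, 2 of the 10 were lower (*Jag1* and *Jag2*) and 0 were higher, beside 1206 lower (8.09%) and 1292 higher (8.66%) of the 14916 genes. The log2 fold changes of the 10 genes had a median of -0.21, with 8 below 0, where all tested genes had a median of 0.01. The ranges of the 2 groups overlapped for all 10 genes, while they did not overlap for 10.7% of tested genes.

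**Figure D1:**
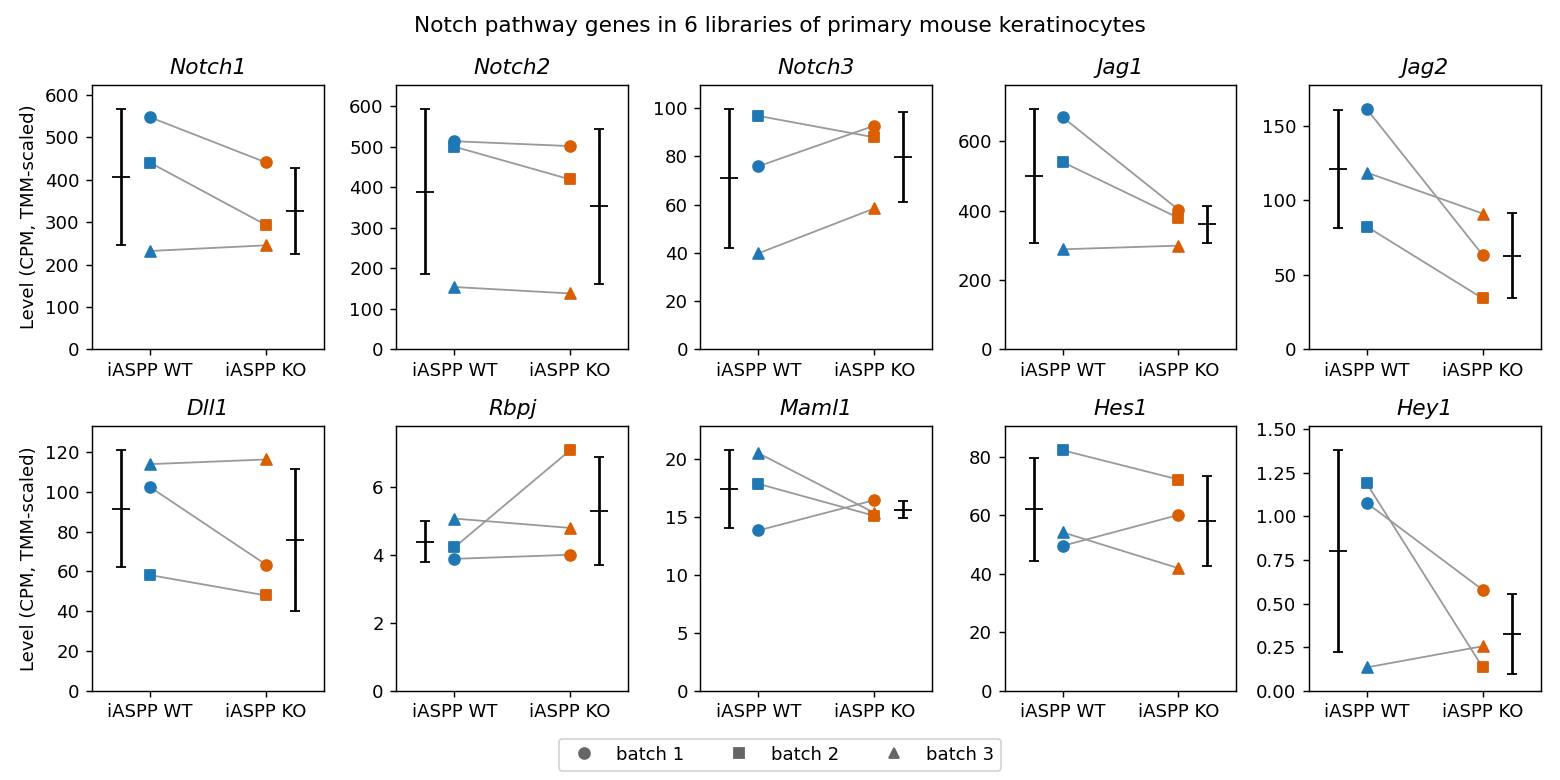
Level of each of the 10 Notch pathway genes (vertical axis, CPM scaled by TMM, starting at 0) in iASPP WT and iASPP KO libraries; marker shapes show batches, grey lines join the 2 cultures of a batch, and black bars are the group mean ± SD (n = 3). *Jag2* is lower in iASPP KO in all 3 batches, and both batch 3 values of *Notch2* lie far below the other 4.

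Among the ligands 1 of 3 passed the test and all 3 had a negative log2 fold change. *Jag2* encodes a Jagged ligand made by basal keratinocytes, on chromosome 12 (GRCm38, 112907819 to 112929776, minus strand). It stood at 63.4, 34.3 and 91.1 CPM in iASPP KO libraries of batches 1, 2 and 3. The iASPP WT libraries held 161, 82.4 and 119 CPM. Each iASPP KO library was below its own partner, but the iASPP KO library of batch 3 was above the iASPP WT library of batch 2, so the groups overlapped. Group means were 62.9 ± 28.4 CPM with tamoxifen and 120.7 ± 39.5 CPM without (SD, n = 3 libraries). Within batches the log2 difference was -1.35, -1.26 and -0.38. The decline was thus steep in batches 1 and 2 and shallow in batch 3. None of the 5065 windows of read length (42 bases) in its longest protein-coding transcript occurs in an annotated transcript of another gene. Near matches, unannotated copies and exons outside that transcript were not checked.

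*Jag1* encodes the other Jagged ligand, on chromosome 2 (137081456 to 137116644, minus strand). Its level was 403, 379 and 299 CPM in iASPP KO libraries and 669.9, 540.4 and 289 CPM in iASPP WT libraries of batches 1, 2 and 3. The 2 iASPP WT libraries of batches 1 and 2 were the highest of the 6, and batch 3 held nearly equal values. The fitted log2 fold change was -0.40 ± 0.15 (SE, n = 3 pairs), with a 95% interval of -0.73 to -0.07 and an edgeR adjusted p of 0.201. Within batches it was -0.73, -0.51 and 0.05.

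*Dll1* encodes a Delta-like ligand, on chromosome 17 (15367354 to 15376872, minus strand). It measured 63.4, 47.9 and 116 CPM in iASPP KO and 102, 58.2 and 114 CPM in iASPP WT libraries of the 3 batches. Both libraries of batch 3 were the highest and both of batch 2 the lowest of the 6 libraries. Of the read-length windows in the longest protein-coding transcript of *Dll1*, 15.4% also occur in *A930024N18Rik*. In its coding part the share was 0.71%. The log2 fold change was -0.31 ± 0.15 (SE, n = 3 pairs), with an interval of -0.64 to 0.01 and an edgeR adjusted p of 0.322. Within batches it was -0.69, -0.28 and 0.03. All 3 ligands therefore showed the same order of batches, with the most negative log2 difference in batch 1 and the least negative or a slightly positive one in batch 3.

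The start regions of the 3 ligand genes are shown because only *Jag2* of them passed the test and because the study is concerned with AP1. That *Jag2* alone passed does not show that the change differed among the ligands. Sequences are from RefSeq (GRCm38.p6), each 250 bases before to 50 bases after a start, printed 5′ to 3′ on the minus strand, which is the strand of these genes. Capitals mark letters that match TGGGAA, the core bound by RBPJ, TGANTCA, the site of AP1, or GGGCGG, the GC box, on either strand.
Jag2 at chr12:112929446-112929745: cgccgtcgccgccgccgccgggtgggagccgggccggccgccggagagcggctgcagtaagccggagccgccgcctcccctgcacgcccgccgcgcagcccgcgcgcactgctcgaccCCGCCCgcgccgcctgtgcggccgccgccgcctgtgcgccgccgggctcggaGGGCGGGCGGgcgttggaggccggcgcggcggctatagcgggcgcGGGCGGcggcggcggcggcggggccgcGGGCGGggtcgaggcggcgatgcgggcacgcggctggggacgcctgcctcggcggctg
Jag1 at chr2:137116471-137116770: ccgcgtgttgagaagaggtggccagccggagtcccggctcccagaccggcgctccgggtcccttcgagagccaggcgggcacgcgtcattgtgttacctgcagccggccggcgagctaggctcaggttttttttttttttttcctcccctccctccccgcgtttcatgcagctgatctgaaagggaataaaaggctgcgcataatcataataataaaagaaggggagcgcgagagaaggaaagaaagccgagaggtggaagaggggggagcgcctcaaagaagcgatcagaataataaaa
Dll1, first start, at chr17:15375774-15376073: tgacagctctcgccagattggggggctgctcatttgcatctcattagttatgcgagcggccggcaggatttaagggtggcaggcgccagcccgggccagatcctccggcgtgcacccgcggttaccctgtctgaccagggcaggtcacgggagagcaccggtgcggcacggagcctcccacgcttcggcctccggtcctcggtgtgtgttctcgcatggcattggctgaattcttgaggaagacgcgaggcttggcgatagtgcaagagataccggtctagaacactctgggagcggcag
Dll1, second start, at chr17:15376883-15377182: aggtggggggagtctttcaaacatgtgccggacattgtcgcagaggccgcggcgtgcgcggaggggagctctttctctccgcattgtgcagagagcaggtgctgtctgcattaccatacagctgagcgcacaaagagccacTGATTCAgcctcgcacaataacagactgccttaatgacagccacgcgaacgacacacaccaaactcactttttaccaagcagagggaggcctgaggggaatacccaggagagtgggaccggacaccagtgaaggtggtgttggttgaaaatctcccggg
The *Jag2* window was 86.0% G and C, above 99.95% of all 32851 promoters of the same length (median 52.7%), and it held 5 GC boxes, 2 of which overlap. The *Jag1* window was 55.7% G and C and held no match to any of the 3 motifs. Of the *Dll1* windows, the first held no match and the second held 1 AP1 match, TGATTCA, 109 bases before the start. In all, 8 of the 10 genes matched the table, with 10 promoters. *Hes1* and *Hey1* were not matched. TGGGAA was present in 2 of the 10 promoters, both of *Rbpj*, against 25.6% of all promoters, the longer GTGGGAA, which contains it, in 0 against 6.38%, TGANTCA in 1 against 7.81% and GGGCGG in 6 against 35.7%. The 2 *Rbpj* windows overlap by 160 bases and share 1 TGGGAA match, which was counted in both. These matches describe letters in the window and no binding was measured in them here.

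Among the receptors no gene passed the test. *Notch1*, the receptor best known for a role in suprabasal keratinocytes, lies on chromosome 2 (26457903 to 26516663, minus strand). Its level was 441, 293 and 245 CPM in iASPP KO and 547, 440.3 and 232 CPM in iASPP WT libraries of batches 1, 2 and 3. The iASPP KO library was the lower of its pair in batches 1 and 2 and slightly the higher in batch 3. The log2 fold change was -0.27 ± 0.14 (SE, n = 3 pairs; 95% interval -0.58 to 0.03; edgeR adjusted p = 0.355). Of the windows of read length in its longest transcript, 13.8% also occur in 2 antisense genes, none of them in the coding part, and counting was by strand.

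*Notch2*, a second widely expressed receptor, lies on chromosome 3 (98013527 to 98150361, plus strand). It measured 501, 419 and 138 CPM in iASPP KO and 513, 499.9 and 154 CPM in iASPP WT libraries. Each iASPP KO library was a little below its partner, and both libraries of batch 3 lay far below the other 4. The log2 fold change was -0.15 ± 0.11 (SE, n = 3 pairs), with an interval of -0.39 to 0.09 and an edgeR adjusted p of 0.575. A same-strand gene, *Gm42820*, shares 541 exon bases with it and held 677 counts over the 6 libraries, against 3247 to 12189 counts of *Notch2* in single libraries.

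*Notch3*, which is best known from vascular mural cells, lies on chromosome 17 (32120820 to 32166852, minus strand). Its values were 92.7, 87.9 and 58.4 CPM in iASPP KO and 75.9, 96.8 and 39.8 CPM in iASPP WT libraries. It was the one receptor with a positive fitted log2 fold change, 0.23 ± 0.15 (SE, n = 3 pairs; interval -0.09 to 0.55; edgeR adjusted p = 0.494), and the difference was positive in batches 1 and 3 and negative in batch 2. The 5 mural markers (*Rgs5*, *Pdgfrb*, *Cspg4*, *Des*, *Myh11*) summed to 3.50 to 33.8 CPM, of which 2 were tested and *Cspg4* passed as lower in iASPP KO. Their sum was highest in batch 3, where *Notch3* was lowest. There it came mostly from *Pdgfrb* (15.2 CPM in iASPP KO and 16.4 CPM in iASPP WT) and *Cspg4* (5.78 and 17.3 CPM). The part of mural cells in the *Notch3* level was not tested. Of the read-length windows in the longest protein-coding transcript of *Notch3*, 5.34% also occur in 3 other genes. In its coding part the share was 6.16%.

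**Figure D2:**
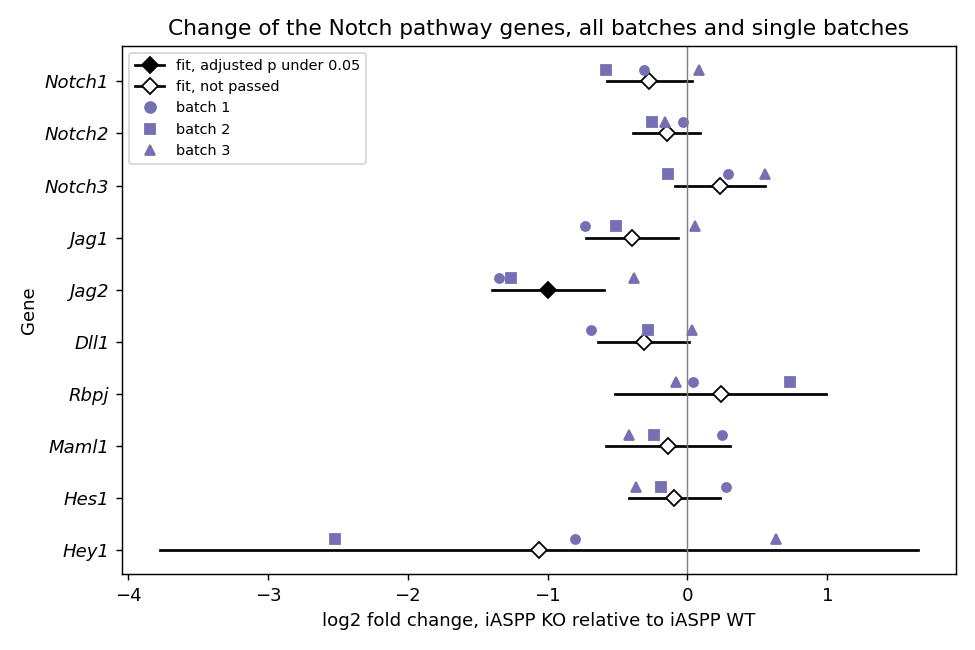
Log2 fold change of the 10 Notch pathway genes, iASPP KO relative to iASPP WT (horizontal axis), with diamonds for the edgeR fit, black lines for its 95% confidence interval, and small markers for single batches. The *Jag2* diamond is filled because it alone passed at an adjusted p under 0.05, and the batch 3 markers of *Notch1*, *Jag1* and *Dll1* lie just above 0.

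The transcription complex and the effectors gave no call. *Rbpj*, the DNA-bound partner of the cut receptor, lies on chromosome 5 (53466152 to 53657362, plus strand). It had 90, 158 and 113 counts in iASPP KO and 83, 103 and 114 counts in iASPP WT libraries, or 3.89 to 7.09 CPM. The iASPP KO library of batch 2 was the highest and the other 5 lay close together. The log2 fold change was 0.24 ± 0.34 (SE, n = 3 pairs; interval -0.51 to 0.99; edgeR adjusted p = 0.803). Of the windows of read length in its coding sequence, 89.0% also occur in a transcript of another gene, and 87.4% in the pseudogenes *Rbpj-ps1* and *Rbpj-ps3*. Over its whole longest transcript the shared part was 25.1%. These had 0 and 52 counts over the 6 libraries. Reads from such windows cannot be placed on 1 gene by sequence alone, and the level of *Rbpj* is uncertain to that extent.

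*Maml1*, a Mastermind-like coactivator on chromosome 11 (50255634 to 50292311, minus strand), measured 16.4, 15.1 and 15.3 CPM in iASPP KO and 13.8, 17.8 and 20.5 CPM in iASPP WT libraries. The iASPP KO values were close to each other and fell within the iASPP WT range. Its log2 fold change was -0.14 ± 0.20 (SE, n = 3 pairs), with an interval of -0.58 to 0.31 and an edgeR adjusted p of 0.806.

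*Hes1*, a repressor that is a classic direct output of the pathway, lies on chromosome 16 (30064384 to 30067796, plus strand). It stood at 60.0, 72.1 and 41.8 CPM in iASPP KO and at 49.5, 82.2 and 54.1 CPM in iASPP WT libraries. The iASPP KO library was the higher of its pair in batch 1 and the lower in batches 2 and 3. The log2 fold change was -0.09 ± 0.15 (SE, n = 3 pairs), and its interval, -0.42 to 0.23, leaves out a fall of the size fitted for *Jag2* (edgeR adjusted p = 0.824). *Hey1*, a related repressor on chromosome 3 (8663359 to 8667256, minus strand), had only 13, 3 and 6 counts in iASPP KO and 23, 29 and 3 counts in iASPP WT libraries. One library of each condition was at 3 counts. At this depth its interval ran from -3.77 to 1.65 on the log2 scale (edgeR adjusted p = 0.748), and a change in either direction was not detectable.

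Compared per length (CPM per kb of summed exons, mean of 6 libraries), *Jag1* was the most abundant of the 10 genes at 73.8, higher than 95.9% of tested genes. *Notch2* at 34.4, *Hes1* at 29.4, *Notch1* at 25.8 and *Dll1* at 19.8 followed. *Jag2* stood at 13.2, *Notch3* at 9.30, *Maml1* at 2.99, *Rbpj* at 0.380 and *Hey1* at 0.172 CPM per kb. The steps from *Jag1* to *Notch2*, from *Dll1* to *Jag2*, from *Notch3* to *Maml1* and from *Maml1* to *Rbpj* held in 6 of 6 libraries. The place of *Rbpj* is limited by its windows shared with other genes, which agreement between libraries does not remove. The order also depends on the length used. Summed exons were 14232 bases for *Notch1*, 10782 for *Notch2*, 2037 for *Hes1* and 12750 for *Rbpj*. Their longest protein-coding transcripts were 9488, 10500, 1468 and 5485 bases. The order was not examined with transcript lengths. Neighbours from *Notch2* down to *Dll1*, and *Rbpj* and *Hey1*, kept their order in 4 of 6 libraries, and *Jag2* and *Notch3* in 3 of 6, so their ranks do not differ beyond the spread between libraries.

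The makeup of the 2 families was described as shares of the summed CPM per kb. The size of a share therefore depends on the summed exon length of each gene. *Jag1* made up 70.0% ± 12.6 of the 3 ligands in iASPP KO against 67.4% ± 13.1 in iASPP WT (SD over 3 libraries). *Dll1* made up 20.0% ± 8.7 and 18.5% ± 9.1. *Jag2* made up 9.75%, 6.04% and 14.2% in iASPP KO and 14.3%, 9.99% and 18.2% in iASPP WT libraries of batches 1, 2 and 3. The *Jag2* share was lower in the iASPP KO culture of each batch and the *Jag1* share was higher. Summed over the 3 ligands, the level was 93.3, 81.4 and 92.0 CPM per kb in iASPP KO and 162, 118 and 93.6 in iASPP WT libraries of batches 1, 2 and 3. The iASPP KO sums were close together and each was below its partner, by little in batch 3. Among the receptors, *Notch1* held 36.8% ± 8.7 and 40.3% ± 5.6, *Notch2* 47.3% ± 11.3 and 47.3% ± 6.3, and *Notch3* 15.9% ± 3.3 and 12.4% ± 2.2 (iASPP KO, iASPP WT).

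**Figure D3:**
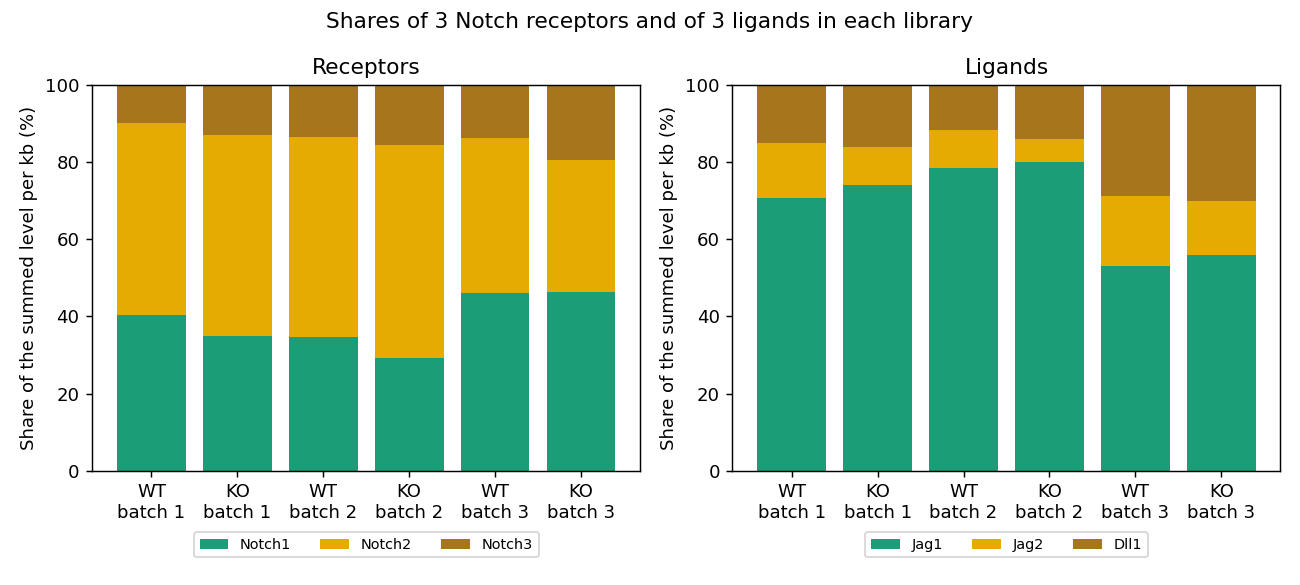
Share (%) of each receptor and each ligand in the summed level per kb of its family, 1 bar per library, ordered by batch. *Jag1* fills the most of each ligand bar, the *Jag2* segment is smaller in the iASPP KO bar of each batch, and both batch 3 bars hold the most *Dll1*.

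Ratios of 2 genes within a library do not depend on how the library is scaled, apart from the prior count (2) added here. The log2 ratio of *Jag2* to *Jag1* was lower in iASPP KO in all 3 batches, at -0.61, -0.75 and -0.43 (iASPP KO minus iASPP WT), with a mean difference of -0.60 ± 0.16 (SD, n = 3 pairs). The ratio of *Notch3* to *Notch1* was higher in iASPP KO in all 3 batches, by 0.60, 0.45 and 0.47, with a mean difference of 0.51 ± 0.08. Batch 3 thus showed both differences although its *Jag1* and *Notch1* levels did not drop. An exact two-sided sign-flip permutation test gave p = 0.25 for each, which is the smallest p that 3 pairs allow, and 0.5 after Benjamini-Hochberg adjustment over 4 ratios. The ratio of *Notch2* to *Notch1* differed by 0.12 ± 0.31 and that of *Hey1* to *Hes1* by -0.81 ± 1.68 on the log2 scale. The sign-flip test gave an exact p of 0.5 for each, and the direction was mixed across batches. From raw counts without a prior, *Hey1* to *Hes1* differed by -0.94 ± 2.14, with an exact sign-flip p of 0.75. On that scale *Jag2* to *Jag1* differed by -0.60, *Notch3* to *Notch1* by 0.51 and *Notch2* to *Notch1* by 0.12.

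The 3 batches of cells also differed in these genes. The batch term of the edgeR fit was called for 6 of the 10 genes, which were the 3 receptors and the 3 ligands, against 15.8% of all tested genes. *Notch2* varied most among these 6, from a mean of 146 CPM in batch 3 to 507 CPM in batch 1, a ratio of 3.48 (edgeR adjusted p = 7.5e-05). *Notch1*, *Notch3* and *Jag1* were likewise lowest in batch 3. *Dll1* ran the other way, from 53.0 CPM in batch 2 to 115 CPM in batch 3, and *Jag2* was lowest in batch 2 at 58.3 CPM. *Hes1* ranged from 48.0 CPM in batch 3 to 77.1 CPM in batch 2, with an edgeR adjusted p of 0.0514. Beside these differences, batch 3 held the highest fibroblast and mural sums and the lowest suprabasal sums, and batch 2 the lowest melanocyte sum, 341 to 395 CPM against 854 to 1088 CPM. The part of these cells in the batch differences was not tested.

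Leaving out 1 batch at a time changed which genes passed. Without batch 3, *Jag2* fell by 1.31 on the log2 scale (adjusted p = 6.9e-19) and 3 more genes were lower with an edgeR adjusted p under 0.05. These were *Jag1* at -0.62 (adjusted p = 1.3e-05), *Notch1* at -0.45 (adjusted p = 0.0043) and *Dll1* at -0.49 (adjusted p = 0.0092). In that fit of 2 pairs, 793 of all 15261 tested genes were called higher (5.20%) and 662 lower (4.34%). Each fit with 1 batch left out had 2 pairs, so its p-values leaned on an error term shared across genes. They do not measure the spread between 2 pairs. With batch 2 left out, *Jag2* stood at -0.86 and its edgeR adjusted p was 0.0805, and without batch 1 it was -0.81 with 0.0484. Thus the *Jag2* call was lost without batch 2, while its direction was negative in each of these fits. A fit without the replicate block, that is without the batch term, also lost the call, with *Jag2* at -0.94 and an edgeR adjusted p of 0.973.

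**Figure D4:**
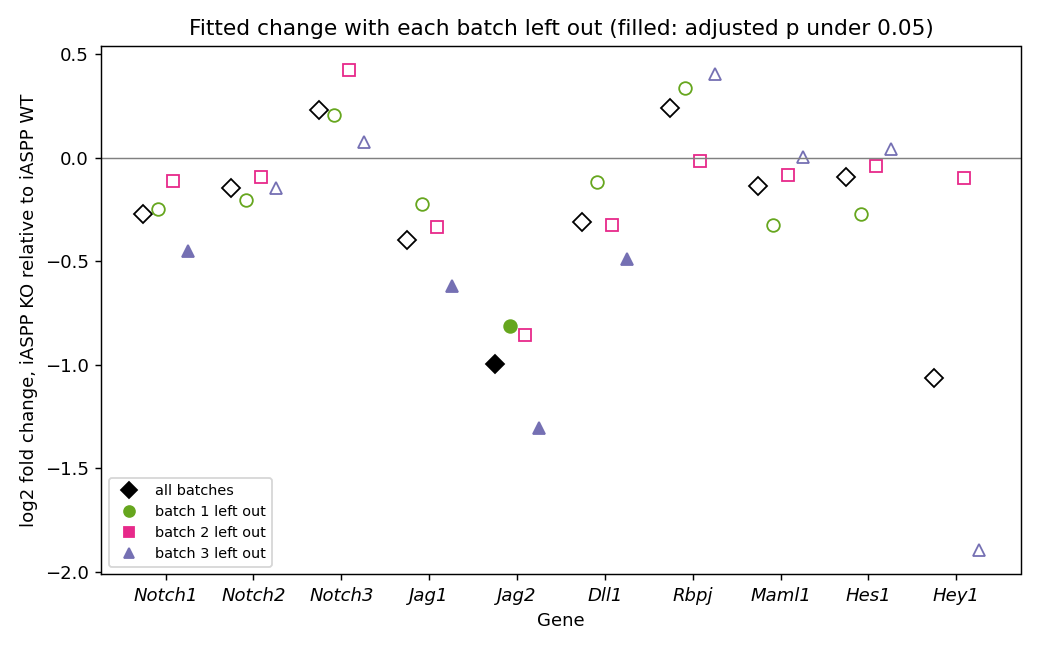
Fitted log2 fold change of each gene (vertical axis, iASPP KO relative to iASPP WT) with all batches and with 1 batch left out; filled symbols have an edgeR adjusted p under 0.05. *Jag2* lies below 0 in all 4 fits and is open with batch 2 left out, *Notch1*, *Jag1* and *Dll1* are filled only with batch 3 left out, and *Hey1* has too few counts to be tested with batch 1 left out.

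Markers of other cells moved with the condition in a few cases, and their values stand beside the *Jag2* result. The 6 suprabasal markers summed to 951 to 2876 CPM in iASPP KO and 851 to 2548 CPM in iASPP WT, with *Sbsn* called higher and *Krt10*, a keratin of the first suprabasal layer, called lower. The 6 fibroblast markers summed to 36.7 to 454 CPM in iASPP KO and 33.7 to 669 CPM in iASPP WT, with *Col1a2* and *Col3a1* called lower. The 6 leukocyte markers summed to 64.8 to 79.7 and 43.5 to 63.2 CPM, with *Csf1r* called higher and *Cd3e* at 0 in each library. Endothelial sums were 3.02 to 14.6 CPM, with 3 of 6 markers tested, and no endothelial or melanocyte marker was called. The fibroblast sum was at most 51.5 CPM in batches 1 and 2, and the *Jag2* difference was larger there than in batch 3. Whether these values are related was not tested, and neither was the part of other cells in the *Jag2* result.

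Beyond the 10 genes, 57 other genes of the pathway were listed by role, all 57 were in the table and 44 were tested. Of the 44, 0 were called in either direction by edgeR or by DESeq2, and in edgeR at an unadjusted p under 0.05 there were 2 higher (*Maml3* and *Ep300*) and 2 lower (*Lfng* and *Hdac2*), where 8.66% and 8.09% of all tested genes were. Their log2 fold changes had a median of -0.02, with 19 positive and 25 negative. *Lfng*, a glycosyltransferase that extends sugars on Notch and alters its response to ligands, had the most negative value. It measured 1.87, 1.12 and 4.46 CPM in iASPP KO and 3.75, 3.90 and 8.95 CPM in iASPP WT libraries. Each iASPP KO library was below its partner, and batch 3 was the highest in both groups. Its log2 fold change was -1.25 (edgeR adjusted p = 0.115). *Lfng*, *Maml3*, *Ep300*, *Hdac2* and *Nrarp* were singled out after their values were seen.

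The genes with the highest level per length in 8 of the roles were read as well, and the test called none of these 8. *Mib1*, a ubiquitin ligase needed for ligand endocytosis, measured 265 ± 13.8 CPM in iASPP KO against 305 ± 28.8 CPM in iASPP WT (SD over 3 libraries), with a log2 fold change of -0.20 (edgeR adjusted p = 0.405). Among enzymes that act on the receptor, the log2 fold change was 0.21 for *Poglut1*, which adds glucose to Notch, and 0.07 for the ADAM protease *Adam10*. The values were -0.19 for the coactivator *Snw1*, 0.03 for the corepressor *Ctbp1*, 0.29 for the ubiquitin ligase *Dtx3*, -0.07 for the effector *Hes6* and -0.02 for the ligand-like *Dlk2*. The edgeR adjusted p-values of these 8 genes ran from 0.401 to 0.990. A batch difference was called for 7 of the 44 genes, a share close to the 15.8% of all tested genes. The 13 genes not tested, which included the receptor *Notch4*, the ligand *Dll4* and the effectors *Hes5*, *Hey2* and *Heyl*, had at most 23 counts in a library. Without batch 3, 1 of the other pathway genes was called higher and 1 lower, where 5.20% and 4.34% of all tested genes were. *Nrarp*, a feedback inhibitor of Notch, was at 0.72 in that fit (edgeR adjusted p = 0.0141) and at 0.21 with all batches (edgeR adjusted p = 0.809), and its differences within batches were 0.50, 0.93 and -0.88. The corepressor *Hdac2* was at -0.45 without batch 3 (edgeR adjusted p = 0.0223) and at -0.42 with all batches (edgeR adjusted p = 0.108).

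**Figure D5:**
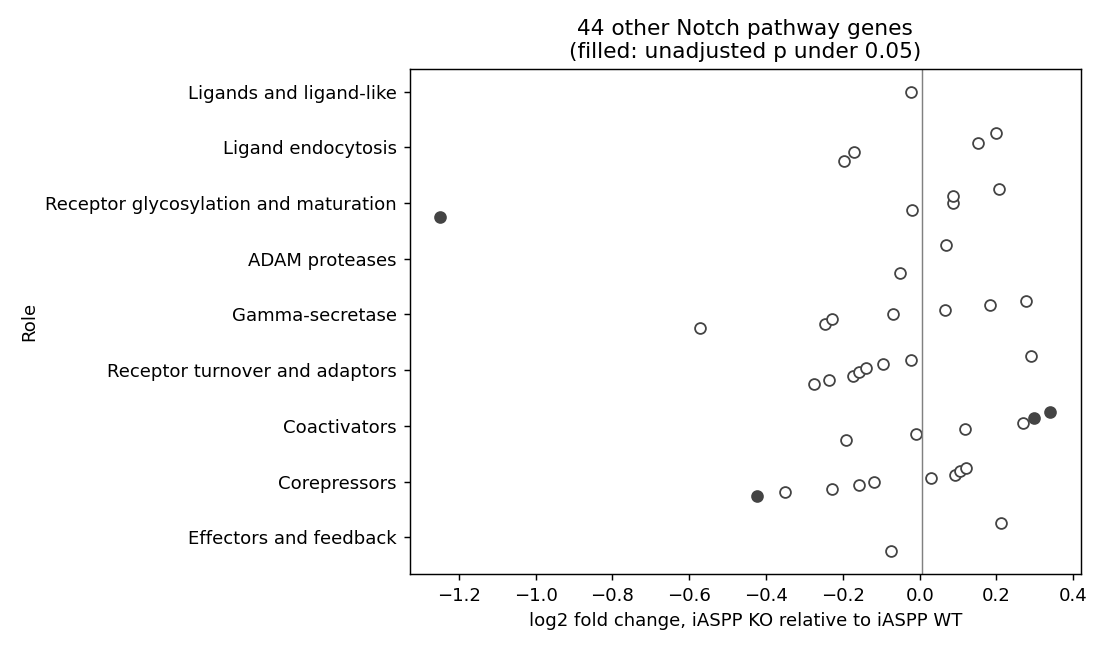
Log2 fold change (horizontal axis, iASPP KO relative to iASPP WT) of the 44 other tested Notch pathway genes by role, with a vertical line at the median of all tested genes. The other 43 points lie between -0.57 and 0.34, and *Lfng* stands alone at -1.25.

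The genes whose levels followed *Jag2* most closely over the 6 libraries (Pearson's r of log2 CPM, among 14862 tested genes outside the pathway) were *Tctn1* (r = 0.994), *Fbxo46* (r = 0.993) and *P2ry1* (r = 0.992). For *Notch1* they were *Snhg3* (r = 0.992), *Nfkb1* (r = 0.991) and *Clcn3* (r = 0.990). Nearest to *Hes1* were *Gm38120* (r = 0.996), *Sin3b* (r = 0.990) and *Golga3* (r = 0.987). With 6 points that share batches, 65 genes exceeded an r of 0.95 with *Jag2*, 80 with *Notch1* and 19 with *Hes1*, and none of the 9 named genes was called between conditions or between batches. These correlations are a description only.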

How the data were processed

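RNA was ribodepleted and sequenced as single reads of 42 bases. The authors trimmed adapters with cutadapt 2.10, aligned reads to GRCm38 (mm10) with STAR 2.7.3 and deposited counts per gene name from featureCounts 2.0.0, by strand, with GENCODE M25. These deposited counts were not normalized. A deposited table of the authors' DESeq2 comparison (fold changes and p-values) was not used. Samples were grouped by labels, and cultures paired by labelled batch, which the study's methods adjust for. Deviations from group means correlated at 0.302, 0.368 and 0.568 within batches and at -0.427 to 0.179 between them. Deviations cancel out over the libraries of a group, so part of the contrast between these values is built in.

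Counts were tested with edgeR 4.0.16 (R 4.3.3): filterByExpr, TMM, glmQLFit and glmQLFTest with batch and condition, Benjamini-Hochberg adjustment over 14916 genes, threshold 0.05. The SE is the absolute log2 fold change over the square root of F. Within a batch, log2 CPM was compared after adding a prior count (2). The steps were run on simulated counts with dispersion from the trend alone, which checks the code and not the error rates in these data. Intervals of fold changes use an error term that edgeR moderates across genes, with a median of 8.17 prior against 2 residual degrees of freedom. They and the p-values thus do not measure only the spread between the 3 pairs of a gene. The value of 3 counts reflects counting error alone. Nothing states that batches were separate animals, so p-values speak for these cultures only. Windows of 42 bases came from transcripts of GENCODE M21 on GRCm38, promoters from RefSeq.

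Genes named were the 10 pathway genes, the targeted gene, cell markers, the highest gene per length in each other role and the 3 nearest genes by correlation, except 1 gene that is not reported here. Other genes were named after their values were seen, or as examples of genes not tested. Members and lists were chosen with earlier results of these data known. Alternatives were no batch term, DESeq2 1.42.0, its size factors, upper-quartile scaling, no filter beyond 1 count, at least 10 counts in every library, robust dispersion, and each batch left out.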

Additional observations from a re-analysis of the deposited data

How the results depend on the processing

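Without the replicate block (the batch term), no gene was called: 0 of the 10 Notch pathway genes lower, and 0 of all tested genes higher or lower, although 360 and 331 had an unadjusted p under 0.05. With no filter beyond 1 count, 2 of the 10 were lower, *Jag2* and *Jag1* (edgeR adjusted p = 0.0355). Of all 31932 genes tested in that fit, 624 were higher and 491 lower. Leaving out 1 batch (without replicate 1, 2 or 3 in both groups) gave 0 to 4 of the 10 lower. It gave 0 to 1 other pathway gene higher and 0 to 1 lower. Of the 15236 to 15437 genes tested, 169 to 793 were higher and 117 to 662 lower. Over these 3 fits *Rbpj* ran from -0.015 to 0.40, *Maml1* from -0.33 to 0.00186 and *Hes1* from -0.27 to 0.042, on both sides of 0. *Jag2* kept its negative direction in all 10 alternatives and was called in 8 of the 9 that kept the batch term, with DESeq2 giving an adjusted p of 1.1e-05. DESeq2 gave *Hey1* no adjusted p. The cause of these changes was not tested. Depth limits *Hey1*, at 3 counts in 2 libraries, and read length limits *Rbpj*. With 3 pairs, exact tests of ratios cannot go below 0.25.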
